A study of Mus musculus with 29 samples.

Results

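Serum amyloid A (Saa1, Saa2, Saa3 and Saa4), lipocalin 2 (Lcn2), the orosomucoids (Orm1, Orm2 and Orm3), haptoglobin (Hp) and hepcidin (Hamp) are plasma protein genes of the acute phase response, and they were followed here by name in mouse liver. The 10 genes are 10 of 55421 genes in the count table, and all 10 passed the filter on low counts in every comparison. Poly(A) RNA of whole liver was sequenced from mice given HDM201, an inhibitor of MDM2 (the ubiquitin ligase that keeps p53 low), or vehicle by daily oral gavage, with tissue taken after 14 days. The HDM201 dose was 10 mg/kg. The labels give 6 groups. Young vehicle F and young vehicle M were 5 months old and of the substrain written C57BL6/N. Old vehicle F and old HDM201 F were 20 months old, old vehicle M and old HDM201 M were 24 months old, and these 4 groups were C57BL/6J, so age cannot be told apart from substrain in any comparison of old with young. No young mouse received HDM201. Counts were available for 27 mice (5, 4 and 5 females and 4, 4 and 5 males in that order of young vehicle, old vehicle and old HDM201) and FPKM for 29, the additional mice being young vehicle M 5 and old vehicle M 1. Per the study's methods each mouse was a biological replicate, and a young male with an open wound and suspected infection was left out of the study's analysis. The labels do not say which mouse that was.

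In the acute phase response, interleukin 6 and interleukin 1 released after infection or injury reach hepatocytes, where STAT3, C/EBP and NF-kB raise the transcription of a set of secreted proteins. Saa1 and Saa2 encode the inducible serum amyloid A proteins that travel on high density lipoprotein, Saa3 is expressed by macrophages and fat as well as liver, and Saa4 is the constitutive form. Lcn2 encodes a siderophore-binding protein that keeps iron from bacteria and is also stored in neutrophil granules. Orm1, Orm2 and Orm3 encode alpha-1-acid glycoproteins, which bind small molecules in plasma, and Hp captures free haemoglobin. Hamp encodes hepcidin, the hormone that closes the iron exporter ferroportin, and it answers to BMP-SMAD signals of iron status as well as to STAT3.

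The members sit on 4 chromosomes of GRCm38 (mm10), with positions taken from GENCODE vM21. The 4 Saa genes lie within 42.3 kb on chromosome 7, with Saa3 at chr7:46711998-46715700, Saa4 at chr7:46727998-46732603 and Saa1 at chr7:46740497-46742980 on the minus strand and Saa2 at chr7:46751790-46754313 on the plus strand. Hamp is on the same chromosome at chr7:30942368-30944032 (minus strand). The Orm genes fill 21.3 kb of chromosome 4 on the plus strand, Orm1 at chr4:63344560-63348163, Orm3 at chr4:63356162-63359511 and Orm2 at chr4:63362449-63365878. Lcn2 is at chr2:32384633-32388252 and Hp at chr8:109575128-109579172, both on the minus strand. All 10 are protein-coding. Close paralogs can exchange or lose reads in counting: of all 50-base windows of the longest coding transcript of Saa1, 9.11% occurred in Saa2, 20.4% of those of Orm1 occurred in Orm2, 3.58% of those of Orm2 in Orm3, and 16.6% of those of Hamp in its neighbour Hamp2. Values of these pairs are therefore uncertain. The shares do not measure the error in the counts, which was not estimated and may weigh more on a low gene beside an abundant paralog, such as Orm2 beside Orm1.

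RefSeq promoter windows (GRCm38.p6, 250 bases before to 50 after the transcript start) were found for 8 of the 10 members, not Orm1 or Hp. The windows of 6 are shown because their genes moved together (Saa1 and Saa2), are near copies with different patterns (Orm2, Orm3), come from the same cluster as Saa1 with another pattern (Saa3), or belong to the member that moved apart from the rest (Hamp). Capitals mark matches to the motifs searched on both strands.
Saa1: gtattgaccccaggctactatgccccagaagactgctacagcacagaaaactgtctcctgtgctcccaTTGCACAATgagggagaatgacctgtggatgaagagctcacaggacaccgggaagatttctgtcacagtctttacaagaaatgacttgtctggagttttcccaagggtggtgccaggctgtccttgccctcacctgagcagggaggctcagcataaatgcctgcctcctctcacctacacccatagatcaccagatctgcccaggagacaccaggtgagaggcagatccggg
Saa2: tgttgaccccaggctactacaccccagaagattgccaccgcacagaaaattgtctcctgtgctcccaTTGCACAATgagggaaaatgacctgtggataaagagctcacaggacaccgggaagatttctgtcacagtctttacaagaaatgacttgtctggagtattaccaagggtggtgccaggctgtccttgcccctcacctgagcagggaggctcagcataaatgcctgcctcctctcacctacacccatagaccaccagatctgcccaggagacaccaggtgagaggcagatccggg
Saa3: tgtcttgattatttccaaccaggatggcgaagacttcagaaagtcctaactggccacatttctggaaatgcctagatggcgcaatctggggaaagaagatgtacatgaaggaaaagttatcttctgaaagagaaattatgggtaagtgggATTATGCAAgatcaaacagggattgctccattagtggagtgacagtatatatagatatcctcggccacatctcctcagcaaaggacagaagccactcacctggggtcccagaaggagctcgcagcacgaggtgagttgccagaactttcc
Orm2: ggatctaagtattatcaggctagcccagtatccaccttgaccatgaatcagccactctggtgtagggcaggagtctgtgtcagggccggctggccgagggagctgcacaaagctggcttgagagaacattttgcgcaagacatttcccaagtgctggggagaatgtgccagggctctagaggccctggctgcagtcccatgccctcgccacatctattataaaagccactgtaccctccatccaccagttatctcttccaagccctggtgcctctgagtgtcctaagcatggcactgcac
Orm3: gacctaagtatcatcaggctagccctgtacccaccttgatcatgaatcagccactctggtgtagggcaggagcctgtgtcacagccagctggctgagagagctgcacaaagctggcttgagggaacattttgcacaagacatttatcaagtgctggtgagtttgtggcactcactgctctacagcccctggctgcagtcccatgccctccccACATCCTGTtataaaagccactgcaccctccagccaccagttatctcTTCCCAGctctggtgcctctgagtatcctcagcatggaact
Hamp: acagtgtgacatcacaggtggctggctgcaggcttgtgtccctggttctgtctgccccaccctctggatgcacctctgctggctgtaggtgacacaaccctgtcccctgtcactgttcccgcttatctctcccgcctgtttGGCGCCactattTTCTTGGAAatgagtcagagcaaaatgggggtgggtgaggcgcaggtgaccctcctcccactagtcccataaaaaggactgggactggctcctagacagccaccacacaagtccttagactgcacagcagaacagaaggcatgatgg
The windows are chr7:46742931-46743230 (minus strand), chr7:46751583-46751882 (plus strand), chr7:46715627-46715926 (minus strand), chr4:63362199-63362498 and chr4:63355908-63356207 (both plus strand) and chr7:30943980-30944279 (minus strand). The C/EBP form TTGCNNAAT matched in all 4 Saa windows, at positions -182, -183, -100 and -53 from the start in Saa1, Saa2, Saa3 and Saa4, and in 2.4% of 32851 promoters of the same length. Its sister form TTGCNNCAA (2.08% of promoters) and the NF-kB forms GGGNNTTTC (4.36%) and GGANTTTCC (1.25%) matched in none of the 8 windows. Hamp held the BMP response element GGCGCC (11.9% of promoters) at -109 and the STAT form TTCNNNGAA (8.3%) at -97. The glucocorticoid receptor form ACANNNTGT (6.85%) matched in Lcn2 at -152 and in Orm3 at -38, and the type 2 IL-6 element CTGGGAA (11.1%) matched in Orm3 at 10 on the other strand. The Saa1 and Saa2 windows were 95.3% identical, those of Orm2 and Orm3 86.3%, and those of Saa1 and Saa3 49.3%. These matches describe letters in the windows and not bound sites.

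Libraries held 16485900 to 23570458 counts in genes, and any 2 mice had a Spearman rho of 0.93 to 0.992 over genes. The summed level of 8 hepatocyte markers (Alb, Ttr and others) was 80572 to 164622 CPM (counts scaled to library size) in the 27 mice. The 10 members together took 0.32% to 0.429% of counts in young vehicle F, 0.475% to 1.66% in young vehicle M and 0.426% to 0.569% in the old vehicle mice of both sexes. In old HDM201 M the share was 0.484% to 1.97%. The gene Nnt, part of which is missing in C57BL/6J, was low in all groups. Its level, summed over 2 entries of that name, was 2.24 to 4.41 CPM in young vehicle F against 2.18 to 2.91 CPM in old vehicle F. It was 2.40 to 3.69 CPM in young vehicle M against 1.61 to 2.39 CPM in old vehicle M. The vehicle groups thus overlapped in females and lay apart by a narrow margin in males. Old HDM201 M, also labelled C57BL/6J, had 1.27 to 2.68 CPM and overlapped young vehicle M. The 1 entry tested was called in neither sex (old minus young log2 -0.34 in females and -0.59 in males, edgeR adjusted p = 0.232 and 0.159). In whole liver, fewer cells of a type and less RNA per cell cannot be told apart.

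Levels of different genes were compared per length, in the authors' FPKM, over the mice that also had counts. Hamp and Hp were the most abundant members. The median FPKM of Hamp ran from 2188 in old vehicle M to 7314 in old HDM201 F, and that of Hp from 1557 in young vehicle F to 4204 in young vehicle M. Orm1 followed, with group medians of 767 to 1395 FPKM, while its neighbours stayed far below it: Orm2 had medians of 11.1 to 47.2 FPKM and Orm3 of 0.537 to 6.04 FPKM. Saa1 ran from a median of 39.8 FPKM in young vehicle F to 1874 FPKM in young vehicle M, and Saa2 lay at 29.4 and 1378 FPKM in the same groups. Saa4 kept medians of 85.8 to 176 FPKM, Lcn2 of 10.1 to 59.5 FPKM and Saa3 of 7.18 to 31.7 FPKM. In young vehicle F the order was Hamp, Hp, Orm1, Saa4, Saa1, Saa2, Orm2, Lcn2, Saa3 and Orm3. The ranges of Saa1 (27.4 to 66.2 FPKM) and Saa2 (14.9 to 46.7 FPKM) overlapped there, as did those of Orm2 (8.72 to 17.3 FPKM) and Lcn2 (8.12 to 13.5 FPKM) and those of Saa3 (3.83 to 13.3 FPKM) and Orm3 (3.65 to 8.73 FPKM). The counts reversed the order of Orm2 and Orm3: in young vehicle F Orm3 had 12.5 to 19.0 CPM and Orm2 5.59 to 10.8 CPM. Their longest coding transcripts are of similar length (773 and 775 bases), so the place of Orm3 in the FPKM order is uncertain.

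**Figure D1:**
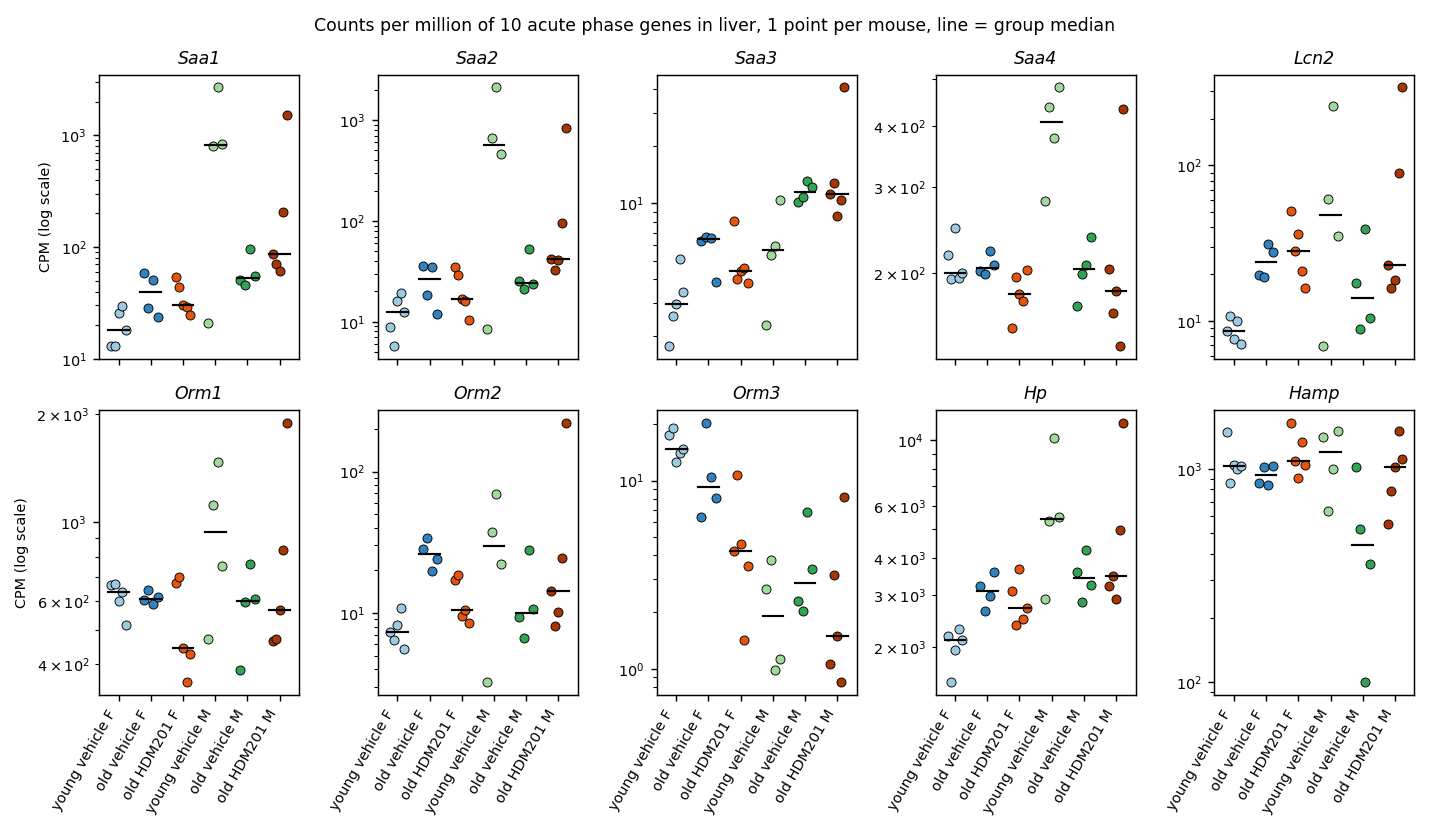
CPM of each member in the 27 mice with counts, on a log axis, with 1 point per mouse in replicate order within its group and a line at the group median. Young vehicle M 2, 3 and 4 and old HDM201 M 5 stand above the other mice in Saa1 and Saa2, and Orm3 is higher in the young females than in the 4 young males plotted.

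Saa1 and Saa2 separated the mice more than the other members did, and most of that spread was among males. In females the Saa1 level was low in every group. Young vehicle F 1 to 5 had 13.1, 12.9, 25.6, 29.7 and 18.0 CPM. Old vehicle F 1 to 4 had 58.8, 28.4, 51.0 and 23.8 CPM, and old HDM201 F 1 to 5 had 54.2, 44.3, 30.4, 29.2 and 24.5 CPM. The young and old vehicle females overlapped in part, and the old female groups overlapped almost fully. Young vehicle M 1 had 20.8 CPM, within the range of the young females, whereas young vehicle M 2, 3 and 4 had 797, 2670.2 and 838 CPM. Old vehicle M 2 to 5 had 50.6, 45.9, 96.4 and 54.7 CPM. Among old HDM201 M, mice 1 to 3 had 86.9, 70.8 and 61.0 CPM, mouse 4 had 205 and mouse 5 had 1519.5. The group means hid this split, since young vehicle M averaged 1081 ± 1124 CPM (SD, n = 4) and old HDM201 M 389 ± 635 CPM (SD, n = 5).

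Saa2, which lies beside Saa1 in the opposite orientation, followed it mouse by mouse. Its level was 5.69 to 19.2 CPM in young vehicle F, 12.0 to 35.7 CPM in old vehicle F and 10.4 to 34.6 CPM in old HDM201 F. Young vehicle M 1 to 4 had 8.52, 663, 2108 and 459 CPM and old HDM201 M 1 to 5 had 41.8, 32.6, 40.8, 95.1 and 843 CPM, so the same mice were high as for Saa1. The young-to-old difference in females was called for both genes, with a log2 difference of 1.05 ± 0.29 SE, edgeR adjusted p = 0.0162 for Saa1 and 1.04 ± 0.35 SE, edgeR adjusted p = 0.0371 for Saa2. The Saa2 call rested on single mice, since the adjusted p reached 0.118 without old vehicle F 1 and was 0.101 without old vehicle F 3, 0.0877 without young vehicle F 1, 0.0665 without young vehicle F 2 and 0.0648 without young vehicle F 5. It was also lost with DESeq2 (0.0814) and in limma on log2(FPKM + 1) (0.0547). The adjusted p of Saa1 was 0.0601 without old vehicle F 1. Young females lay below young males by 54.9-fold for Saa1 (log2 difference -5.78 ± 0.91 SE, edgeR adjusted p = 0.00228) and by 65.5-fold for Saa2 (-6.03 ± 1.02 SE, edgeR adjusted p = 0.00344), although young vehicle M 1 overlapped the females in both genes. Without young vehicle M 3 the log2 differences were -4.80 and -4.92 (adjusted p = 0.00434 and 0.00671).

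In males the fitted differences of old from young vehicle mice were negative in both genes, just short of the threshold in the edgeR fit of these groups. The groups overlapped, since young vehicle M 1 lay below every old vehicle male in both genes. The log2 difference of old minus young vehicle males was -4.11 ± 1.00 SE, edgeR adjusted p = 0.0521 for Saa1 and -4.71 ± 1.14 SE, edgeR adjusted p = 0.0508 for Saa2. Both passed with DESeq2 (adjusted p = 0.00298 and 0.00158), without the filter on low counts (0.00269 and 0.00247) and with all 6 groups in 1 fit (0.00601 and 0.00464). Neither passed with the replicate block or in any limma fit on FPKM. Without young vehicle M 1, the low mouse, both also passed (adjusted p = 0.00485 and 0.00592), and without young vehicle M 3, the highest, the values were -3.15 and -3.62 with adjusted p = 0.111 and 0.106. The difference between the sexes in the change with age was called, at 5.17 ± 1.04 SE, edgeR adjusted p = 0.014 for Saa1 and 5.77 ± 1.18 SE, edgeR adjusted p = 0.0141 for Saa2 on the log2 scale, females minus males. It was called in all 17 fits that left out 1 mouse, and without young vehicle M 3 it was 4.20 and 4.67. HDM201 against vehicle in old males gave 2.67 ± 0.97 SE, edgeR adjusted p = 0.338 for Saa1 and 2.81 ± 1.01 SE, edgeR adjusted p = 0.334 for Saa2, neither called, and without old HDM201 M 5 the log2 differences were 0.78 and 0.79.

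Saa3 and Saa4, from the same cluster, had other patterns. Saa3 was low everywhere and lowest in young vehicle F (1.77 to 5.12 CPM), and it rose in old vehicle F to 3.84 to 6.68 CPM (log2 difference 0.90 ± 0.26 SE, edgeR adjusted p = 0.018). Without old vehicle F 2 the adjusted p was 0.0535. In old males Saa3 was 10.1 to 13.1 CPM with vehicle and 8.54 to 40.7 CPM with HDM201, old HDM201 M 5 again being the highest. Old vehicle males lay above old vehicle females, a comparison for which no test was planned. The share of all genes that separated these groups was not counted, and the groups also differed in age. Old minus young vehicle males gave 0.94 ± 0.34 SE, edgeR adjusted p = 0.145. Saa4 was the steady member in females, at 195 to 247, 199 to 222 and 154 to 203 CPM in young vehicle, old vehicle and old HDM201 F. Young vehicle M 1 to 4 had 281, 439, 378 and 480.2 CPM, above all young females and all old vehicle males (172, 199.6, 208 and 238 CPM in mice 2 to 5). Saa4 was lower in young females than in young males (log2 difference -0.91 ± 0.15 SE, edgeR adjusted p = 0.00247) and lower in old than in young males (-0.94 ± 0.17 SE, edgeR adjusted p = 0.0195), with no overlap in either comparison. The latter call was lost without old vehicle M 4 (adjusted p = 0.0628) and without young vehicle M 4 (0.0532). Unlike Saa1, Saa4 was above the young females also in young vehicle M 1.

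Lcn2 was higher in old than in young vehicle females without overlap. Young vehicle F 1 to 5 had 8.64, 10.8, 7.70, 10.0 and 7.16 CPM and old vehicle F 1 to 4 had 19.8, 19.3, 31.5 and 27.9 CPM, a 2.82-fold difference (log2 1.50 ± 0.17 SE, edgeR adjusted p = 8.72e-05), called in all 9 fits that left out 1 mouse. With HDM201, old F 1 to 5 had 50.7, 28.3, 36.3, 21.1 and 16.3 CPM, which spread on both sides of the old vehicle females (log2 0.29 ± 0.28 SE, edgeR adjusted p = 0.59). In males Lcn2 followed Saa1: young vehicle M 1 to 4 had 6.89, 61.0, 239 and 35.4 CPM, old vehicle M 2 to 5 had 17.7, 8.93, 38.9 and 10.6 CPM and old HDM201 M 1 to 5 had 22.9, 16.3, 18.3, 89.7 and 317 CPM. Young females were lower than young males by 9.73-fold (log2 -3.28 ± 0.70 SE, edgeR adjusted p = 0.0126), although young vehicle M 1 lay below every young female, and without young vehicle M 3 the log2 difference was -1.96 (adjusted p = 0.0272). The change with age differed between the sexes by 3.66 ± 0.92 SE, edgeR adjusted p = 0.0359, and this call was kept in 6 of the 17 fits that left out 1 mouse (lowest value 2.35, adjusted p = 0.0747, without young vehicle M 3). HDM201 against vehicle in old males was not called (2.30 ± 0.93 SE, edgeR adjusted p = 0.368), and the value was 0.96 without old HDM201 M 5. Because neutrophils also carry Lcn2 mRNA, 13 neutrophil markers were summed beside it: the sum was 2.01 to 4.25 CPM in young and 6.69 to 58.3 CPM in old vehicle females, where S100a8, S100a9 and Csf3r, the 3 markers tested, were all called higher, and the part of these transcripts in the Lcn2 difference was not tested. In the young males with 35.4 to 239 CPM of Lcn2 the same sum was 1.81 to 4.34 CPM and Ly6g and Stfa2l1 had no count in any young mouse. Old HDM201 M 1 to 5 had neutrophil sums of 6.29, 7.33, 16.7, 39.8 and 20.4 CPM. Mice 4 and 5, with the most Lcn2 of that group, thus also had its highest sums, in the reverse order. Old vehicle M 4 had the highest sum (45.8 CPM) and the highest Lcn2 of its group. The part of neutrophil transcripts in the male values was not tested either.

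Of the Orm genes, Orm1 was abundant and Orm2 and Orm3 were low. Orm1 was 514 to 670.3 CPM in young and 589.7 to 646 CPM in old vehicle females (log2 difference 0.02 ± 0.091 SE, edgeR adjusted p = 0.919), 358 to 702 CPM in old HDM201 F, 470.0 to 1467 CPM in young vehicle M, 385 to 761 CPM in old vehicle M and 463 to 1892 CPM in old HDM201 M. It varied little in vehicle females and more in old HDM201 F and in males. Its highest mice were young vehicle M 3 and old HDM201 M 5, and it was called in no comparison. Without young vehicle M 1 it passed for young females against young males (-0.86, adjusted p = 0.0104) and for the sex difference in the change with age (0.93, adjusted p = 0.0413).

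Orm2 was the member with the largest rise with age in females and the only member called with HDM201. Young vehicle F 1 to 5 had 7.38, 6.41, 8.27, 10.8 and 5.59 CPM, old vehicle F 1 to 4 had 28.3, 33.8, 19.9 and 23.9 CPM and old HDM201 F 1 to 5 had 17.2, 18.5, 9.48, 10.4 and 8.55 CPM. All old vehicle females lay above all young females and above all HDM201-treated females, and the treated females reached down into the range of the young ones. The rise with age was 3.51-fold (log2 1.81 ± 0.19 SE, edgeR adjusted p = 5.65e-05) and was called in all 9 fits that left out 1 mouse. With HDM201 Orm2 was 2.11-fold lower (log2 -1.08 ± 0.23 SE, edgeR adjusted p = 0.0257). This call stood close to the threshold: the adjusted p was 0.0509, 0.0906 and 0.0549 without old vehicle F 1, 2 and 4, and 0.0576 and 0.067 without old HDM201 F 3 and 4, with log2 differences of -1.24 to -0.94 over the 9 fits. The 2 comparisons share the old vehicle females. In males Orm2 took the pattern of Saa1, with 3.26, 37.4, 69.6 and 22.2 CPM in young vehicle M 1 to 4, 9.43, 6.61, 27.8 and 10.7 CPM in old vehicle M 2 to 5 and 14.4, 8.13, 10.1, 24.6 and 221 CPM in old HDM201 M 1 to 5. HDM201 against vehicle in old males gave 2.05 ± 1.00 SE, edgeR adjusted p = 0.442 and 0.08 without old HDM201 M 5. Young females were lower than young males (-2.12 ± 0.56 SE, edgeR adjusted p = 0.0326), a call kept in 1 of 9 fits that left out 1 mouse, that without young vehicle M 1, and the value was -1.45 without young vehicle M 3 (adjusted p = 0.107). The sex difference in the change with age was 3.09 ± 0.77 SE, edgeR adjusted p = 0.035, called in 6 of 17 such fits, and 2.43 without young vehicle M 3 (adjusted p = 0.0739).

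Orm3, which lies between Orm1 and Orm2, differed between the young sexes in the direction opposite to the other 6 members called there. Young vehicle F 1 to 5 had 17.4, 19.0, 12.5, 14.0 and 14.8 CPM and young vehicle M 1 to 4 had 2.66, 3.77, 0.981 and 1.13 CPM, so that among mice with counts every young female exceeded every young male, by 7.34-fold on average (log2 2.88 ± 0.32 SE, edgeR adjusted p = 0.000162, called in all 9 fits that left out 1 mouse). This did not hold for the young male without counts: young vehicle M 5 had 53.6 FPKM of Orm3, above the 3.65 to 8.73 FPKM of the young females, and with it limma on log2(FPKM + 1) gave 0.97 (adjusted p = 0.603). Old vehicle F 1 to 4 had 6.43, 20.3, 10.5 and 8.06 CPM and old HDM201 F 1 to 5 had 4.23, 10.7, 4.57, 1.42 and 3.52 CPM, overlapping in part. Neither the change with age in females (-0.43 ± 0.27 SE, edgeR adjusted p = 0.254) nor that with HDM201 (-1.25 ± 0.45 SE, edgeR adjusted p = 0.126) was called. Each passed in a single fit without 1 mouse, the first at -0.88 (adjusted p = 0.00518) without old vehicle F 2, the highest of its group, and the second at -1.74 (0.0359) without old HDM201 F 2. The change with HDM201 also passed in edgeR without the filter on low counts (-1.26, adjusted p = 0.0411) and with the replicate block (-1.25, 0.0439). Old males had 2.03 to 6.77 CPM with vehicle and 0.853 to 8.20 CPM with HDM201. Hamp2, the neighbour of Hamp, shared the direction between the sexes, with 559.6 to 937 CPM in young females and 28.8 to 58.6 CPM in young males (log2 4.28, edgeR adjusted p = 4.54e-07).

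Hp, abundant in every mouse, moved by smaller factors. Young vehicle F 1 to 5 had 2173, 1523, 1949, 2289 and 2111 CPM and old vehicle F 1 to 4 had 3213, 2648, 2983 and 3586 CPM, without overlap (log2 0.65 ± 0.13 SE, edgeR adjusted p = 0.00218, called in all 9 fits that left out 1 mouse). Old HDM201 F kept 2362 to 3661 CPM. Young vehicle M 1 to 4 had 2904, 5337, 10175 and 5514 CPM, again with mouse 1 lowest and mouse 3 highest, and all lay above the young females (-1.58 ± 0.28 SE, edgeR adjusted p = 0.0045). Old vehicle M had 2827 to 4252 CPM. Old HDM201 M 1 to 5 had 3208, 3487, 2900.0, 4958 and 11476 CPM, and the log2 difference from vehicle was 0.60 ± 0.39 SE, edgeR adjusted p = 0.553, or 0.07 without old HDM201 M 5. The sex difference in the change with age was 1.43 ± 0.35 SE, edgeR adjusted p = 0.033, called in 11 of 17 fits that left out 1 mouse.

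Hamp did not follow the other members. Its level was 859 to 1495 CPM in young vehicle F, 836 to 1033 CPM in old vehicle F and 907 to 1644 CPM in old HDM201 F, and 633 to 1500.0 CPM in young vehicle M, and the groups overlapped. Old vehicle M 2 to 5 had 1022, 519, 100.1 and 356 CPM and old HDM201 M 1 to 5 had 549, 782, 1018, 1509 and 1116 CPM. Old vehicle M 4 held the lowest value of the 27 mice. The log2 difference of HDM201 from vehicle was 1.00 ± 0.52 SE, edgeR adjusted p = 0.459 in old males and 0.34 ± 0.16 SE, edgeR adjusted p = 0.224 in old females. No comparison called Hamp. Of the mice with high Saa1, young vehicle M 2, 3 and 4 had 633, 995 and 1500.0 CPM of Hamp and old HDM201 M 5 had 1116 CPM. Transcripts of red cell precursors are given beside Hamp because its hormone governs the iron supply of those cells: the sum of 5 erythroid markers (4 globin genes and Alas2) was 1139.7 CPM in old vehicle M 4, the highest of the 27 mice, and 158 to 191 CPM in young females. Within groups the sum and Hamp did not keep 1 order. In old HDM201 F 1 and 4 the sum was 17.5 and 22.3 CPM, the lowest of that group, with its highest Hamp. Old HDM201 M 1 to 5 had sums of 205, 165, 174, 101 and 130 CPM. Mouse 1 there had the highest sum with the lowest Hamp, and mouse 4 the lowest sum with the highest Hamp. Old vehicle M 4 had the highest sum and the lowest Hamp of its group. Other mice went the other way. Young vehicle M 4 had both the highest sum (327 CPM) and the highest Hamp of its group. Old vehicle F 2 and 4, with the higher sums of theirs (251 and 220.3 CPM), also had the higher Hamp. Between groups, the sum was 101 to 205 CPM in old HDM201 M against 286 to 1139.7 CPM in old vehicle M, without overlap. In old females it was 17.5 to 165 CPM with HDM201 against 164 to 251 CPM with vehicle. All 5 erythroid markers lay below 0 with HDM201 in both sexes and none was called. The part of red cell precursors in these values was not tested.

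**Figure D2:**
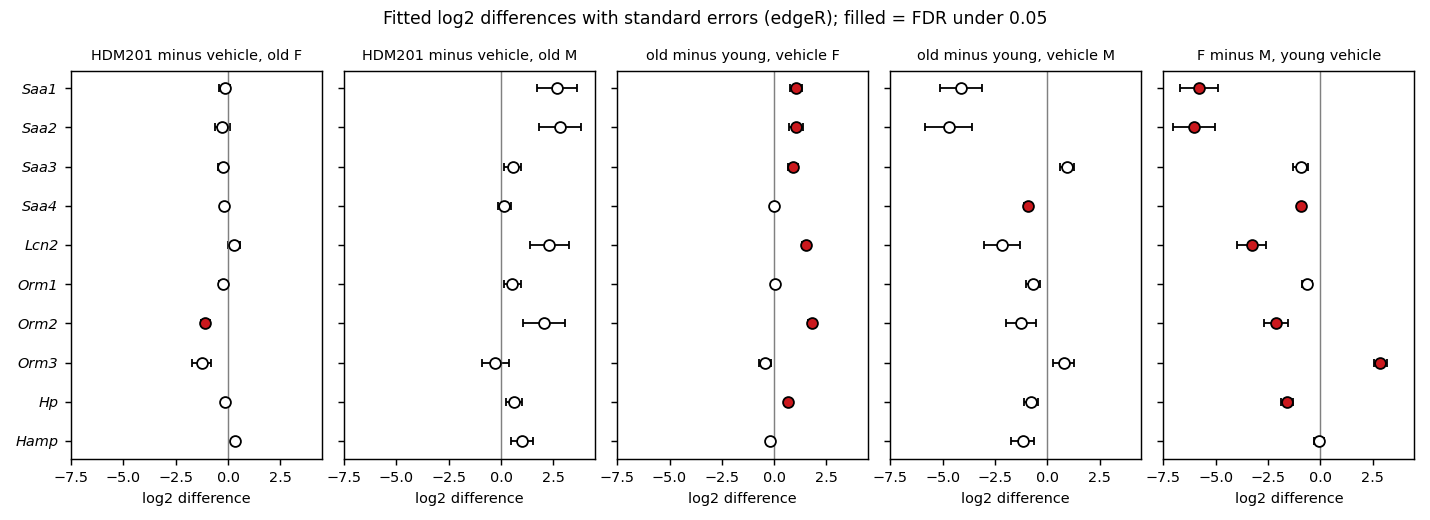
Log2 differences with standard errors from edgeR for the 10 members in the comparisons of 2 groups, filled where the adjusted p was under 0.05. The calls fall mainly in the comparison of old with young females (6 of 10) and of young females with young males (7 of 10), while in old males no member was called with HDM201, where the standard errors of Saa1, Saa2, Lcn2 and Orm2 were near 1.

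Between the sexes in young vehicle mice, 6 members were lower in females (Saa1, Saa2, Saa4, Lcn2, Orm2 and Hp) and Orm3 was higher. Saa3 and Orm1 also lay below 0 without a call (-0.94 ± 0.37 SE, edgeR adjusted p = 0.121 and -0.63 ± 0.25 SE, edgeR adjusted p = 0.126), and Hamp was at -0.07. The test over 13875 genes put 5.63% of them higher in females and 4.91% lower. The groups did not overlap for Saa4 and Hp on the lower side and for Orm3 on the higher side, against 6.09% and 6.75% of all genes. Of 26 other positive acute phase genes tested, 7 were lower in young females, led by Lrg1 (log2 -1.86, edgeR adjusted p = 0.00644), Fgl1 (-1.48, 0.0388), Hpx (-1.19, 0.0158), which binds free haem, and Serpina3k (-1.06, 0.00231), and 2 were higher, Il1rn, the interleukin 1 receptor antagonist (1.26, 0.0133), and Cd14. The list's median log2 difference was -0.46. Of 16 signal transducers and transcription factors, Socs3, the feedback inhibitor of STAT3 signalling, was lower in females (-0.97, 0.0056), while Cebpb (0.87, 0.0163) and Nfkbia (0.62, 0.00528) were higher. Il1rn was also the 1 gene called among 11 cytokines and receptors tested. Among 26 iron genes, besides Hamp2, Bmp2 (0.80) and Hmox1 (0.43) were higher and Slc11a2 (-0.67), Acvr2a (-0.38) and Tfr2 (-0.37) lower. Of 12 negative acute phase genes, Serpina1c alone was called (-0.54), and Hpx was the 1 called of 7 partner and receptor genes. Macrophage and Kupffer cell markers went in the direction opposite to most members: 8 of 11 were called higher in young females, with sums of 301 to 443 CPM in females and 138 to 282 CPM in males. Their part in the member values was not tested.

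With age in vehicle females, Saa1, Saa2, Saa3, Lcn2, Orm2 and Hp rose and no member fell. The 16.8% of 14233 genes called higher and 15.0% called lower are the background for these 6 of 10. Lcn2, Orm2 and Hp separated the groups without overlap, as did 12.3% of all genes on the higher side. The other positive acute phase genes moved with them, 13 of 26 higher and 3 lower (median log2 0.36, against 0.009 over all genes). Cd14, the co-receptor for endotoxin (1.52, edgeR adjusted p = 0.000748), Fgl1 (1.31, 5.74e-05) and Itih4 (0.90, 0.000253) rose, and Lpin1 (-1.69, 0.0114) and Serpina3k (-1.43, 6.71e-05) fell. Of the 16 signal transducers and transcription factors, 8 rose and none fell: Relb, a subunit of the noncanonical NF-kB pathway (1.49, 0.000327), Socs3 (0.91, 0.0072), Stat3 (0.70, 0.00016), Nfkbiz (0.62, 0.00707) and Bcl3 (0.61, 0.00408) led them. Cebpb (0.02) and Cebpd (-0.04) were not called. Of 11 cytokines and receptors tested, Il1b (2.33, 0.000962) and Il22ra1 (0.78, 0.0107) rose and Il1rap, the accessory chain of the interleukin 1 receptor, fell (-1.16, 1.81e-05). Il6 itself had at most 3 counts summed over any group, and Il22 had none. The receptor chains Il6ra (-0.37), Il6st (0.19) and Il1r1 (-0.35) were not called.

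The negative acute phase genes, which fall in inflammation, were divided in old females: Rbp4 (-0.45), Igf1 (-0.34) and Serpina1c (-0.29) fell, Trf rose (0.54), and Alb was at 0.11 (edgeR adjusted p = 0.484). Among 26 iron genes 6 rose, with Hmox1, the haem oxygenase (1.23, 0.00109), Atoh8 (0.85), Slc11a2 (0.63) and Smad6 (0.52) as the largest, and Hamp2 fell (-0.92, 0.0031), as did Bmpr2. Of 9 partners and receptors of the products, Fpr2, a receptor for serum amyloid A (1.90, 0.0044), Mmp9 (1.71), Tlr2 (1.07) and Hpx (0.40) rose and Cd163, which takes up haptoglobin with haemoglobin, fell (-1.82, 0.000722). Macrophage and Kupffer cell markers moved the same way as the 6 members, with 10 of 11 called higher and sums of 490.4 to 1009 CPM in old against 301 to 443 CPM in young females. Saa3, Cd14, Fpr2 and Il1b are known to be expressed by macrophages as well, and the part of these cells was not tested. When all 6 groups shared 1 estimate of the spread, which then included that of the males, none of the 10 members was called in this comparison.

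With age in vehicle males, 8 of 10 members lay below 0 and Saa4 alone was called lower, against 0.931% of 13755 genes called lower and 2.76% called higher. Saa4 was also the 1 member without overlap, as were 6.51% of all genes on the lower side. In all, 6 members had an unadjusted p under 0.05, as did 3007 of the 13755 genes. Of these members, Saa3 lay above 0. The median log2 difference of the members was -1.06. No other positive acute phase gene was called out of 26 tested by edgeR, with a median of -0.53. Relb rose here as in females (1.65, edgeR adjusted p = 0.00977) and Tlr2 also passed (1.42, 0.0496). Stat3 (0.02) and Socs3 (0.07) had values near 0. Of the macrophage markers 3 of 11 were called higher (Cd68, C1qa and Lyz2), so that they rose while Saa4 fell.

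The sex difference in the change with age was called for 6 of 10 members, Saa1, Saa2, Saa4, Lcn2, Orm2 and Hp, and each was positive, that is, old minus young was larger in females than in males. Of 14721 genes, 3.92% were called in either direction. The same term was called for 6 of 26 other positive acute phase genes, all positive: Fgl1 (2.46, edgeR adjusted p = 0.0274), Lrg1 (2.07, 0.0197), Itih4 (1.54, 0.0219), Itih3 (1.43, 0.0321), Lbp (1.37, 0.0243) and C3 (1.15, 0.0293). Tfr2 (0.68) and Hfe (0.67), which take part in iron sensing upstream of Hamp, were positive and called, as was Lrp1 (0.68) among 9 partners and receptors, and Il1rap was negative (-0.91, 0.00441). Saa3 stood at -0.02 ± 0.47 SE, edgeR adjusted p = 0.99. No macrophage marker was called out of 11, with values of -0.41 (Cd68) to 1.84 (Marco).

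With HDM201 in old females, Orm2 fell and no member rose. This is 1 of 10 members called lower and 0 higher, against 2.90% and 2.35% of 14445 genes, and Orm2 was the 1 member without overlap on the lower side, as were 4.24% of all genes. The largest difference was that of Orm3, which was not called (-1.25 ± 0.45 SE, edgeR adjusted p = 0.126), and after Orm2 came Hamp (0.34 ± 0.16 SE, edgeR adjusted p = 0.224) and Lcn2 (0.29 ± 0.28 SE). Saa1 (-0.17 ± 0.28 SE), Saa2 (-0.27 ± 0.37 SE), Saa3 (-0.26 ± 0.24 SE) and Hp (-0.14 ± 0.13 SE) differed by no more than about their standard error, and Saa4 (-0.21 ± 0.081 SE, edgeR adjusted p = 0.153) and Orm1 (-0.26 ± 0.18 SE, edgeR adjusted p = 0.429) were also below 0. None of 26 other positive acute phase genes was called by edgeR (median 0.04). Il1b fell (-1.20, edgeR adjusted p = 0.0469), as did Hnf4a, a liver transcription factor (-0.27, 0.032), Tfrc, the transferrin receptor (-0.44, 0.00999), and Fpr2 (-1.84, 0.0225). Stat3 (-0.05), Socs3 (-0.23), Cebpb (-0.42) and Cebpd (-0.56) were not called. The BMP targets Id1 (0.96, 0.101) and Smad7 (0.48, 0.167) and the ligand Bmp6 (0.28, 0.195) were not called either. Macrophage and Kupffer cell markers fell in 10 of 11 cases, to sums of 300.5 to 492 CPM from 490.4 to 1009 CPM, so Orm2, Il1b and Fpr2 moved in the same direction as these markers. Their part was not tested. Among neutrophil markers Ngp fell (1 of 4 tested).

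With HDM201 in old males, no member was called by edgeR out of 10, against 0.00709% of 14109 genes, and none by DESeq2 or by limma on FPKM. In all, 3 members had an unadjusted p under 0.05, as did 1710 of the 14109 genes. The smallest adjusted p of the members was 0.334, and 9 of 10 lay above 0. Most of these log2 differences rested largely on old HDM201 M 5. Without it Saa3 (-0.10) and Saa4 (-0.23) turned negative, Orm1 was at 0.00, Lcn2 at 0.96 and Orm2 at 0.08. Hamp changed little (0.95), and Orm3 moved further below 0, from -0.28 to -1.13. Of the listed cytokines, transcription factors, acute phase, iron and partner genes none was called by edgeR, among them Il6ra (-0.26), Il6st (-0.09), Stat3 (0.16), Socs3 (0.40), Cebpb (-0.61) and Cebpd (0.26), and the BMP genes Bmp6 (0.08), Id1 (1.02) and Smad7 (0.59). In old HDM201 M 5 the macrophage marker sum was 819 CPM against 312 to 458 CPM in the other 4 mice, and the hepatocyte sum was 80572 CPM, the lowest of the 27. Their part was not tested. The sex difference in the response to HDM201 was called for none of the 10 members by edgeR, DESeq2 or limma (0.107% of 14974 genes by edgeR). An unadjusted p under 0.05 was found for 3 members and for 2774 of the 14974 genes. The smallest adjusted p was 0.141, for Orm2 (-3.11 ± 1.09 SE). Without old HDM201 M 5 that value was -1.14.

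The members were then compared mouse by mouse, after the mean of its group had been subtracted from each log2(CPM + 1) value, over the 27 mice and all 45 pairs. Pearson's r was past an adjusted p of 0.05 in 18 pairs, all positive (permutation test within groups, two-sided, 100000 resamples, Benjamini-Hochberg over 45 pairs), and Spearman's rho in 17. Saa1 and Saa2 were closest (r = 0.991, rho = 0.984, permutation p = 1e-05 for both, the smallest the resamples allow, adjusted p = 0.000225 for r and 0.00045 for rho, r = 0.978 without the 2 mice farthest from the median). Saa1 with Orm2 had r = 0.915 and rho = 0.803 (permutation p = 2.00e-05 and 0.00018, adjusted 0.0003 and 0.00162), and r = 0.85 without those 2 mice. Lcn2 with Orm2 had r = 0.914 and rho = 0.742 (permutation p = 0.00013 and 0.00088, adjusted 0.000731 and 0.0044), and r = 0.84 without them. In most pairs the mice left out were old HDM201 M 5 and young vehicle M 1, and 14 pairs passed without the 2 farthest mice. The 13 males alone gave 16 such pairs and the 14 females 1, Saa1 with Saa2 (r = 0.966). Saa4, Orm3 and Hamp were in none of the 18 pairs, Hamp having r between -0.313 and -0.017 with the other 9 members. The pairs share libraries and, for Saa1 with Saa2 and Orm1 with Orm2, similar sequence (longest coding transcripts 87.4% and 91% identical).

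**Figure D3:**
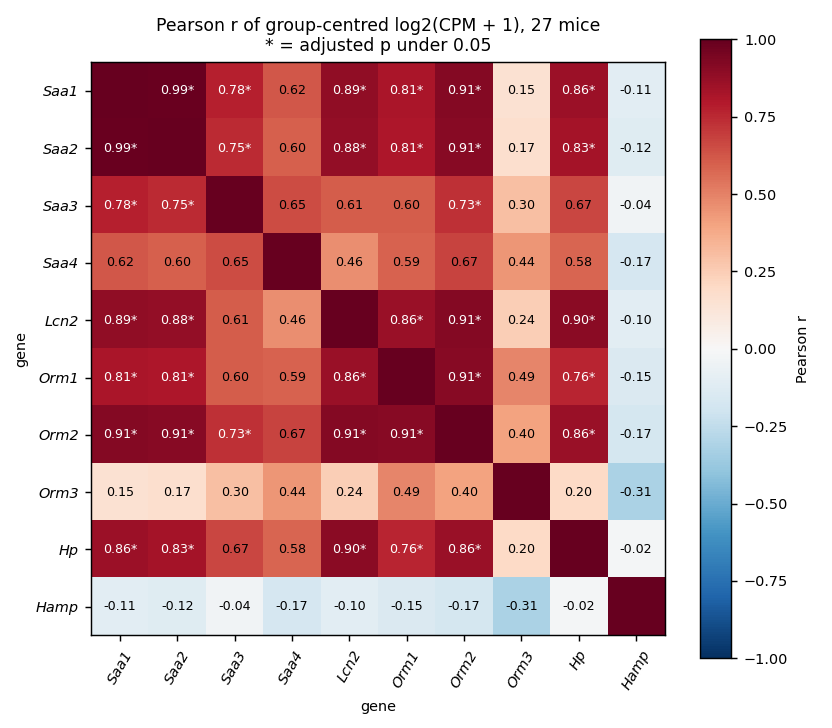
Pearson r of group-centred log2(CPM + 1) for each pair of members over 27 mice, from blue (-1) to red (1), with a star where the adjusted permutation p was under 0.05. Saa1, Saa2, Lcn2, Orm1, Orm2 and Hp form a block of positive values, Saa3 joins it in part, and Saa4, Orm3 and Hamp have no star.

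By the same measure, over 12773 genes with a mean of at least 1 CPM and as a description only, genes outside the 10 members were ranked by likeness to each of 8 members, with the other members left out (some of which were closer, such as Saa2 and Orm2 to Saa1). For Saa1 the first 3 were Fgl1 (r = 0.89), Hpx (r = 0.87) and Itih4 (r = 0.87). Fgl1 is a secreted fibrinogen-like protein, Hpx binds haem and Itih4 is a plasma protease inhibitor family member. For Lcn2 they were Apcs (r = 0.94), Lrg1 (r = 0.94) and Fgl1 (r = 0.94), where Apcs is serum amyloid P. For Hp they were Hpx (r = 0.93), Itih3 (r = 0.92) and Serpina10 (r = 0.90) and for Orm1 Lrg1 (r = 0.90), Cpb2 (r = 0.87) and Isyna1 (r = 0.85). For Saa3 they were Isyna1 (r = 0.72), Nfasc (r = 0.67) and Dnd1 (r = 0.66), below its r with Saa1 (0.775), for Saa4 Arid4b (r = 0.74), Derl3 (r = 0.72) and Cd207 (r = 0.71) and for Orm3 Met (r = 0.75), Plod1 (r = 0.73) and Syne4 (r = 0.70). For Hamp they were Bud13 (r = 0.79), Leng9 (r = 0.74) and Id3 (r = 0.71), and Id3 is a known target of BMP signalling.

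The deposited FPKM extend the male values to the mice without counts. Young vehicle M 5 had 26524 FPKM of Saa1 and 28728 FPKM of Saa2, against 43.2 to 5783 and 19.6 to 5074 FPKM in young vehicle M 1 to 4. It exceeded the other young males in 9 members, among them Lcn2 (2522 FPKM, others 8.35 to 283), Orm2 (3634 FPKM, others 5.06 to 104), Orm3 (53.6 FPKM, others 0.422 to 2.79) and Hp (17087 FPKM, others 2178 to 7178). Hamp alone was below them, at 67.6 FPKM against 3224 to 8026 FPKM. The same mouse had 222 FPKM of the neutrophil gene S100a8 (others 0.234 to 1.21), 34.4 FPKM of Socs3 (others 2.87 to 4.71), 2335 FPKM of Apcs (others 81.7 to 480.3) and 2249.7 FPKM of Ttr, a negative acute phase gene (others 4153 to 5305). Young vehicle M 2, 3 and 4, the high mice by counts, had S100a8 at or below 1.21 FPKM. Old vehicle M 1 was above old vehicle M 2 to 5 in 7 members, including Lcn2 (195 FPKM, others 11.3 to 47.9), Orm2 (144 FPKM, others 10.2 to 42.6) and Saa1 (308 FPKM, others 103 to 213), and below them in Saa3 (17.8 FPKM) and Saa4 (75.4 FPKM). With young vehicle M 5 included, limma on log2(FPKM + 1) called 1 of 10 members between young females and young males, Saa4. With only the mice that have counts it called 3.

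**Figure D4:**
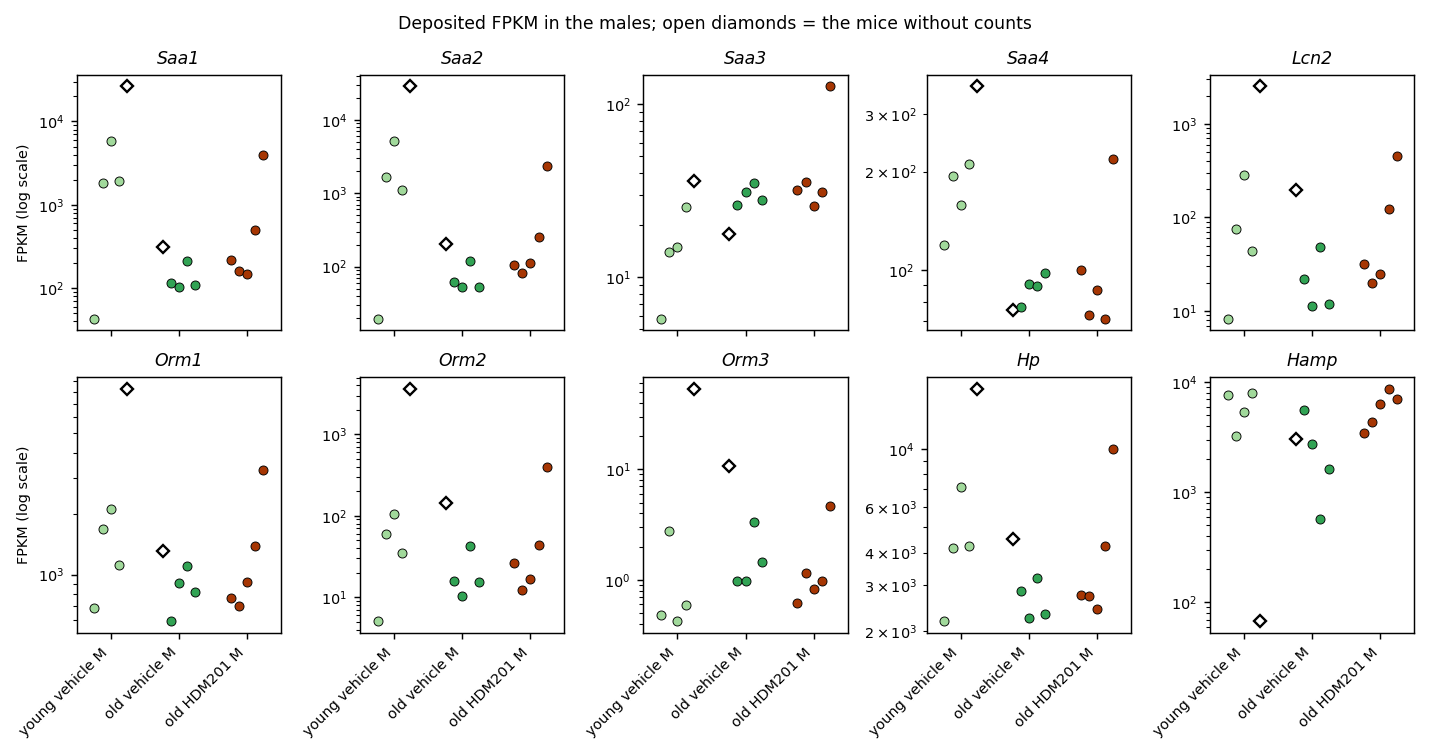
Deposited FPKM of each member in the 15 males on a log axis, with open diamonds for the mice without counts (young vehicle M 5 and old vehicle M 1) and filled points for the rest. Young vehicle M 5 is above the other young males in every panel but Hamp, where it is below them.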

How the data were processed

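Whole-liver poly(A) RNA of 29 mice was sequenced. Per the submitters' processing notes and the study's methods the reads were aligned to mm10 with STAR, gene counts were made with HTSeq and FPKM with Cufflinks. Versions and the strand setting are not given in the sources used here. The deposited counts are raw, with 27 mice and 55421 genes, and the FPKM deposited by the authors, with 29 mice, are scaled for length and depth. The members and lists were chosen with earlier results of these data known. Counts were tested in edgeR 4.0.16 (filterByExpr, minimum count 10 and minimum total 15, TMM, quasi-likelihood, only the groups compared, Benjamini-Hochberg over all genes tested, threshold 0.05). Printed CPM are TMM-scaled. Alternatives were RLE factors, DESeq2 1.42.0, no filter, all 6 groups in 1 fit, a replicate block, a threshold of 0.01, each mouse left out, and limma 3.58.1 with a trend on log2(FPKM + 1) and log2(FPKM + 0.1) for genes with a mean of at least 0.1 FPKM. The edgeR step was tested on simulated counts. R 4.3.3 and Python 3.11.15 were used. Besides the members, the text names a fixed set of receptors and regulators, the called genes of largest change in each pathway list (at most 5 per comparison), and the 3 genes most like each of 8 members. Other named genes were chosen after their values were seen.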

Additional observations from a re-analysis of the deposited data

Results flagged for a closer look

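Within groups of 4 or 5 mice, a single mouse stood far from the rest in 12 of 60 sets of CPM values, by Dixon's ratio of gap to range. Old HDM201 M 5 was the highest of its group in 8 of them, with 1519.5 CPM of Saa1, 843 CPM of Saa2, 40.7 CPM of Saa3, 434 CPM of Saa4, 317 CPM of Lcn2, 1892 CPM of Orm1, 221 CPM of Orm2 and 11476 CPM of Hp. The 8 values come from 1 library and are not independent. The remaining 4 were Saa2 in old vehicle M 4 (52.2 CPM, highest), Saa3 in old vehicle F 4 (3.84 CPM, lowest), Saa3 in old HDM201 F 1 (8.04 CPM, highest) and Hamp in young vehicle F 1 (1495 CPM, highest). The critical values (0.829 for 4 mice and 0.71 for 5) hold for normally distributed values, and the sets share libraries. The 12 of 60 can therefore not be set against a chance rate.

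The change with age differed between the sexes (edgeR interaction term, females minus males, log2) by 5.17 for Saa1, 5.77 for Saa2, 0.95 for Saa4, 3.66 for Lcn2, 3.09 for Orm2 and 1.43 for Hp. The old females were 20 and the old males 24 months old, and age and substrain cannot be told apart in either sex.

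FPKM of the mice without counts lay above the rest of their group for 9 members in young vehicle M 5 and 7 in old vehicle M 1. In young vehicle M 5 they were 26524 for Saa1, 28728 for Saa2, 36.0 for Saa3, 365 for Saa4, 2522 for Lcn2, 8276 for Orm1, 3634 for Orm2, 53.6 for Orm3 and 17087 for Hp. In old vehicle M 1 they were 308 for Saa1, 201 for Saa2, 195 for Lcn2, 1309 for Orm1, 144 for Orm2, 10.8 for Orm3 and 4511 for Hp. Hamp in young vehicle M 5 (67.6) and Saa3 (17.8) and Saa4 (75.4) in old vehicle M 1 lay below the rest, and Hamp in old vehicle M 1 (3049) lay within.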

How the results depend on the processing

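Of 1338 recomputed values of single members, 1174 kept direction and call, 109 kept direction and lost the call, 18 gained one and 37 changed sign, all of them uncalled. With HDM201 in old females 1 member was called, and 0 at a threshold of 0.01, in the fit of all 6 groups and in limma on FPKM with either offset or with only the mice that have counts, 2 without the filter and 2 with the replicate block, and 0 to 2 with a mouse left out. With age in females 6 were called, 3 at 0.01, 0 in the fit of all 6 groups, 5 with DESeq2 and in limma (Saa2 lost) and 4 with the block (Saa2 and Saa3 lost), and 4 to 6 with a mouse left out. With age in males 1 was called, 0 at 0.01, with the block and in the 3 limma fits, and 3 with DESeq2, without the filter and with all 6 groups, Saa1 and Saa2 being gained (0 to 3 with a mouse left out). Between young females and males 7 were called, 9 without the filter, 6 with all 6 groups and with the block (where Lcn2 had -2.30, adjusted p = 0.0885), 1 in limma with either offset and 3 with the mice that have counts (6 to 9 with a mouse left out). The sex difference in the change with age was called for 6, 0 at 0.01, 2 with all 6 groups, 3 with the block, 1 in limma with either offset and 2 with the mice that have counts (3 to 7 with a mouse left out). For HDM201 in old males and its sex difference every fit called 0 members. Of 18 correlated pairs, 1 remained in females alone. The cause of these changes was not tested, beyond the fewer mice or stricter threshold of some. Over all genes the calls with HDM201 in old females numbered 758, against 1329 with DESeq2, 208 with all 6 groups, 366 with the block and 51 and 60 in limma. With HDM201 in old males it was 1 against 163 with DESeq2, and with age in males 507 against 1318 with DESeq2 and 29 with the block.

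Signs that changed were those of Orm1 with age in females (0.00 with DESeq2, -0.01 with all 6 groups, -0.04 with the block), Saa4 and Hamp with age in females (0.16 and 0.01 in limma), Orm3 with age in males (-0.10 in limma), Hamp between young females and males (1.33 in limma, 0.05 with the mice that have counts) and Saa3 in the sex difference with age (0.29 with the block, 0.30 and 0.35 in limma). With a mouse left out the log2 values ran from -0.35 to 0.07 for Saa1 with HDM201 in females, and in males from -1.13 to 0.20 for Orm3, -0.10 to 0.71 for Saa3, -0.23 to 0.28 for Saa4 and 0.00 to 0.69 for Orm1. They ran from -0.04 to 0.05 for both Saa4 and Orm1 with age in females, from -0.27 to 0.10 for Hamp between the young sexes, from -0.48 to 0.03 for Saa4 in the sex difference with HDM201 and from -0.44 to 0.24 for Saa3 in that with age. Replicate numbers did not pair the mice: deviations of same-numbered mice had r of -0.234 to 0.241, so the block is only an alternative. Groups of 4 or 5 mice and the reach of single mice limit every comparison of males.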
